A study of Mus musculus with 12 samples.

Results

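The sterol genes described here are 30 genes of cholesterol synthesis, uptake, export and storage, taken by symbol out of the 24015 genes of the deposited tables. By role, 8 make mevalonate and isoprenoids, 11 turn these into squalene and the sterol ring, 4 control the SREBP switch, 3 serve uptake and transport inside the cell, and 4 serve export and storage. All 30 were listed in both tables, and 29 passed the filter on low counts in each culture. The exception was Hmgcs1, the enzyme that makes the HMG-CoA from which mevalonate is formed, which is listed at 0 in all 12 libraries. Of its exon bases 12.1% are shared with Gm48342. Whether the 0 arose in the counting was not tested, so it is not read as absence of expression.

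The expression of these genes was measured by RNA sequencing of primary mouse B cells grown in culture. The T58A mice carry a mutant MYC that lacks a phosphorylation site needed for its normal turnover, and the WT mice were their littermates. A total of 4 groups of 3 libraries each were sequenced, namely T58A marrow B cells with IL7, WT marrow B cells with IL7, T58A splenic B cells with LPS and WT splenic B cells with LPS, all for 48 h in RPMI with fetal bovine serum. IL7 is a growth factor for early B cells of the marrow, whereas LPS, from bacterial cell walls, makes mature B cells divide and secrete antibody. The titles number the libraries as 3 pairs of a T58A and a WT sample in each culture. Neither the dose of the allele, the age of the mice nor the animal behind each library is given in the labels, so the spread between libraries may be technical in part.

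Cholesterol is built from acetyl-CoA along the mevalonate pathway, whose isoprenoid intermediates also serve protein prenylation, ubiquinone and dolichol. When sterol in the endoplasmic reticulum is low, SCAP carries the transcription factor SREBP2 to the Golgi, where it is cut and released to switch on synthesis and uptake genes, while INSIG proteins hold SCAP back when sterol is plentiful. Oxysterols activate the liver X receptors, which switch on the exporters ABCA1 and ABCG1. T cells that prepare to divide are known to raise synthesis and to lower export.

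Depth lay between 5110746 and 10201113 reads assigned to genes per library, and a count of 0 allows up to 3 reads, or 2.15 to 4.12 normalised reads (counting error only). Gene counts carry no sequence and so cannot check the T58A allele. All 6 markers of the B lineage were measured in every group, with summed levels of 26572 to 33401 normalised reads in T58A and 31503 to 50687 in WT in IL7 cultures, where 3 of the 6 fell. Xist was over 1000 normalised reads in WT 1 and WT 2 of both cultures and in none of the other libraries, all of which had reads of Y-linked genes, so only pair 3 set male T58A against male WT cells. Nsdhl and Ebp lie on the X chromosome, and IL7 WT 2 also held reads of Y-linked genes. In bulk RNA, fewer cells of a type and less RNA per cell cannot be told apart.

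Promoters of the sterol genes are shown because SREBP and its partners act there. RefSeq (GRCm38.p6) gave a window of 250 bases before to 50 after the start for 24 of the 30 genes. Fdps, Fdft1, Sqle, Stard4, Npc1 and Abcg1 had no window. Sqle, Stard4 and Abcg1, which rose in IL7 cultures, could therefore not be searched. The box CCAAT, which binds the SREBP partner NF-Y, was found on either strand in 20 of the 24 (83.3%), against 41.1% of 27025 genes with such a window. The E-box CACGTG, which MYC and SREBP can both bind, was found in 6 of the 24 (25.0%), against 8.09% of all genes, and these were Hsd17b7, Sc5d, Dhcr7, Scap, Insig1 and Abca1. The sterol regulatory element TCACNCCAC was found in Hmgcs1 only (4.17%, against 1.44% of all genes). The liver X receptor repeat DR4 (AGGTCA, any 4 bases, AGGTCA) was found in 0 of 24, against 0.0148% of all genes. Hits of different motifs did not overlap. A match is a run of letters, not a shown binding site, and no match says only that these letters are not in the window.

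The 6 promoters below belong to the genes with the smallest IL7 p-values among those that hold a motif. Each is 150 bases on the gene's own strand, ending at the base before the RefSeq start. Capitals mark CCAAT, its reverse complement ATTGG, or the E-box. GENCODE places the start of these genes up to 105 bases further upstream, or, for Nsdhl, 36 bases further downstream, so the distances depend on the annotation.
Lss (chr10:76531455-76531604, plus strand): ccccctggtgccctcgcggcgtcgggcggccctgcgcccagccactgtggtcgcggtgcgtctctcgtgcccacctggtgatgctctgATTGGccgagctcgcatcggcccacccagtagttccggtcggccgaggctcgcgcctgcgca
Idi1 (chr13:8885456-8885605, plus strand): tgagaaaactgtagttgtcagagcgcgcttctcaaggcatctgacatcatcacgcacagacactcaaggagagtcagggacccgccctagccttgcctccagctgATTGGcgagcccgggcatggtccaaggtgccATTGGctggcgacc
Cyp51 (chr5:4104698-4104847, minus strand): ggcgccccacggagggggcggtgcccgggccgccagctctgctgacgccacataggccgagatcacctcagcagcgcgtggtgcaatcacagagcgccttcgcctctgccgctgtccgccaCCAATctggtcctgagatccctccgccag
Nsdhl (chrX:72918371-72918520, plus strand): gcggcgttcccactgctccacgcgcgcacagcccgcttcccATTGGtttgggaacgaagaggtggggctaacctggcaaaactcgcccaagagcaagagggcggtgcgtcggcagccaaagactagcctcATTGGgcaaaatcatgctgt
Npc2 (chr12:84773113-84773262, minus strand): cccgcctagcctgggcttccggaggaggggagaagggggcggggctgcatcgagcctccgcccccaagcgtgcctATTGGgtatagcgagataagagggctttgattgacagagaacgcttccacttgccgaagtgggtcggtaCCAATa
Scap (chr9:110333206-110333355, plus strand): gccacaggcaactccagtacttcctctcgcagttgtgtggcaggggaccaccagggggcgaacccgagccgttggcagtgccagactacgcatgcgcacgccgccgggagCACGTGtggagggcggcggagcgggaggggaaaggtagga
The enzymes Lss, Idi1, Cyp51 and Nsdhl carry the box 62 bases, 45 and 14 bases, 29 bases, and 109 and 20 bases before the start. Npc2, a cholesterol carrier of the lysosome, carries it 75 and 6 bases before the start. Scap, the SREBP escort, holds an E-box 40 bases before the start and no CCAAT.

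In IL7 cultures, 6 of the 29 tested sterol genes rose in T58A cells and 0 fell. Those that rose were 4 enzymes of synthesis (Idi1, Sqle, Lss and Cyp51), the cholesterol transport protein gene Stard4 and the exporter gene Abcg1, by 1.27-fold to 1.57-fold. These 6 are 20.7% of the members tested, against 6.41% of all 11604 genes that rose and 6.31% that fell at a limma adjusted p under 0.05 with the pair as a block. The limma calls need the block, since without it limma called 0 members and 0 genes of 11604. In that fit 5 of 29 members had an unadjusted p under 0.05 in limma, beside 1960 of the 11604 genes, a like share. DESeq2 without the block called 1 member (Sqle), beside 166 genes higher and 144 lower, and edgeR without it called 0 genes. When sex was added to the block, limma called 1 member (Sqle), and 13 genes higher and 29 lower in all. With this sex term the T58A change rests on the single same-sex pair. The authors' deposited table calls 4 of 28 members higher (Sqle, Lss, Cyp51 and Abcg1) and 0 lower, beside 4.67% of all genes higher and 4.97% lower.

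**Figure D1:**
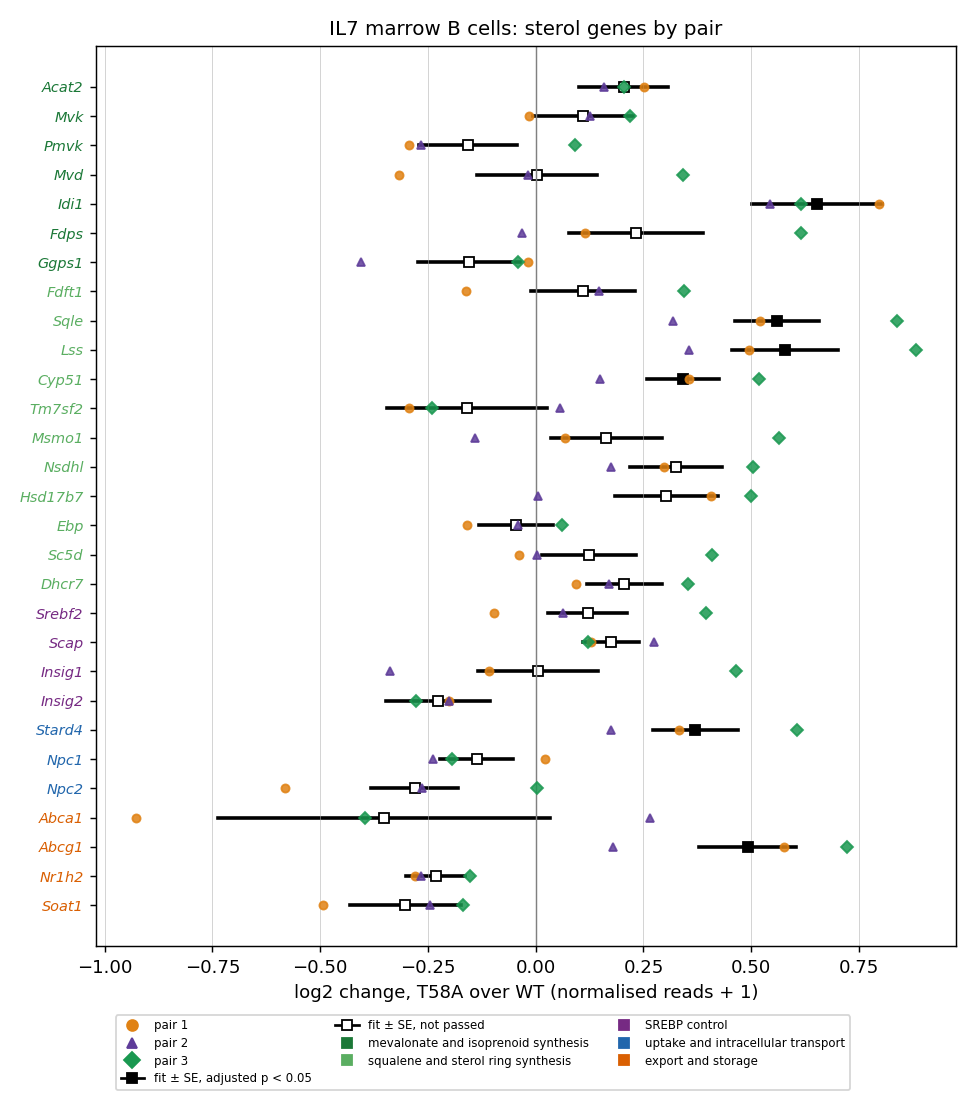
Log2 change of T58A over WT for the 29 tested sterol genes in IL7 cultures, in each pair (coloured points) and in the limma fit (squares with SE, filled where the adjusted p is under 0.05). The 6 filled squares all lie right of 0, and in Sqle, Lss, Cyp51, Stard4 and Abcg1 pair 3 lies farthest right.

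Of the mevalonate and isoprenoid enzymes, 1 of 7 tested rose. Idi1, which isomerises the building block of all isoprenoids (chromosome 13, 8885501 to 8892451, GRCm38), had 109, 131 and 139 normalised reads in T58A 1, 2 and 3, against 62.2, 89.7 and 90.3 in WT 1, 2 and 3. Every T58A library lay above every WT library. The log2 change was 0.65 ± 0.15 (SE, adjusted p = 0.0280, limma), a 1.57-fold difference, and by pair it was 0.80, 0.54 and 0.62. The other 6 did not pass. Fdps, which makes farnesyl diphosphate, had a log2 change of 0.23 ± 0.16, with 138, 143 and 228 normalised reads in T58A against 127, 146 and 149 in WT, so that only T58A 3 stood above the WT range. Acat2, the cytosolic thiolase that opens the pathway, Mvk and Mvd had log2 changes between 0.00 and 0.21, while Pmvk and the geranylgeranyl diphosphate synthase Ggps1 were at -0.16 and -0.15. Acat2 has the near-identical neighbour Acat3 and 26.7% of the exon bases of Fdps are shared with Gm43738, so their counts are less certain. Of the genes that rose, Idi1 shares 9.22% of its exon bases with other annotated genes, Cyp51 3.76% and Lss 3.53%.

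Of the squalene and sterol ring enzymes, 3 of 11 rose, and all 3 act one after another from squalene to the first sterols. Sqle, the squalene epoxidase and a rate-limiting step of the pathway (chromosome 15, 59315077 to 59331192), had 1491, 1695 and 1864 normalised reads in T58A against 1040, 1359 and 1043 in WT. Lss, the lanosterol synthase that closes the ring (chromosome 10, 76531588 to 76557138), had 276, 352 and 468 in T58A against 196, 275 and 253 in WT. Cyp51, which takes a methyl group off lanosterol (chromosome 5, 4081145 to 4104746), had 1157, 1456 and 1598 in T58A against 903, 1313 and 1115 in WT. For Sqle and Lss no T58A library fell below a WT library, the closest approach being T58A 1 and WT 2 in Lss. For Cyp51 the groups overlapped, with T58A 1 under WT 2, yet T58A was the higher in each pair. The log2 changes were 0.56 ± 0.10 for Sqle (adjusted p = 0.0116, limma), 0.58 ± 0.12 for Lss (0.0215) and 0.34 ± 0.08 for Cyp51 (0.0328), or 1.47-fold, 1.49-fold and 1.27-fold.

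The later ring enzymes did not pass. Nsdhl, Hsd17b7 and Dhcr7, which remove the remaining methyl groups and make the last reduction, had every T58A library above every WT library, with log2 changes of 0.33 ± 0.11, 0.30 ± 0.12 and 0.21 ± 0.09 (adjusted p = 0.0787, 0.128 and 0.155, limma). For Hsd17b7 the margin was slight, with T58A 1 and WT 2 both at 316 normalised reads. Nsdhl is X-linked, and its same-sex pair 3 gave 0.50. Msmo1, Sc5d and Fdft1 lay between 0.11 and 0.16, Ebp was at -0.05, and Tm7sf2 at -0.16 on 39.0 to 87.2 normalised reads a library. In all, 6 members had T58A entirely above WT, against 12.9% of all genes, and 2 had it entirely below, against 10.8%.

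**Figure D2:**
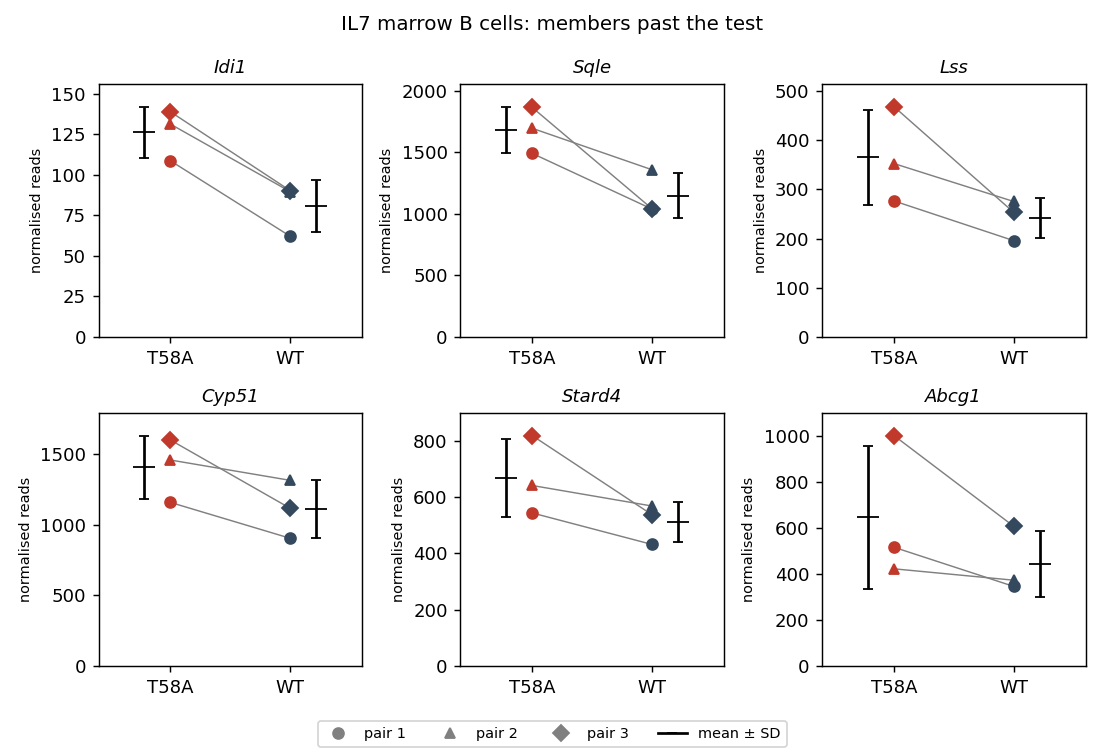
Normalised reads of the 6 sterol genes that rose in IL7 cultures, in each T58A library (left) and WT library (right), with lines joining pairs and bars for the mean and SD of 3 libraries. T58A is higher in each of the 3 pairs in all 6 genes, and in Abcg1 the T58A 3 and WT 3 libraries stand above the others.

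None of the 4 genes of SREBP control passed in IL7 cultures. Srebf2, which encodes SREBP2, had 3569, 3601 and 4055 normalised reads in T58A against 3818, 3444 and 3085 in WT, a log2 change of 0.12 ± 0.09. Scap had 2847, 3007 and 3127 in T58A against 2602, 2486 and 2876 in WT (0.17 ± 0.06, adjusted p = 0.111, limma). It was higher in T58A in all 3 pairs, although T58A 1 lay under WT 3. Insig1, itself a target of SREBP, had 478, 457 and 772 in T58A against 515, 578 and 559 in WT (0.01 ± 0.14), so that T58A 1 and 2 lay below every WT library and T58A 3 above all of them. Insig2 had 161, 165 and 137 in T58A against 186, 190 and 166 in WT (-0.23 ± 0.12, adjusted p = 0.241), every T58A library below every WT library.

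Of the 3 uptake and transport genes, Stard4 rose. It encodes a carrier that moves cholesterol between membranes, and had 543, 641 and 818 normalised reads in T58A against 432, 568 and 537 in WT, a log2 change of 0.37 ± 0.10 (adjusted p = 0.0433, limma). The groups overlapped because T58A 1 lay under WT 2. Npc1 and Npc2, the lysosomal pair that frees cholesterol brought in with lipoprotein, had negative changes that did not pass. Npc1 had 684, 625 and 521 in T58A against 674, 737 and 597 in WT (-0.14 ± 0.09), and Npc2 had 2529, 2486 and 2561 in T58A against 3788, 2984 and 2556 in WT (-0.28 ± 0.10, adjusted p = 0.104). For Npc2, WT 1 and WT 2, the Xist-positive libraries, stood above all others, and pair 3 gave 0.00.

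The 4 export and storage genes split. Abcg1 had 516, 423 and 1003 normalised reads in T58A against 346, 373 and 608 in WT, with both libraries of pair 3 the highest of their genotype, a log2 change of 0.49 ± 0.11 (adjusted p = 0.0267, limma; chromosome 17, 31057675 to 31117988). Abca1, its partner in export, was close to the floor with 5.38, 16.5 and 19.0 in T58A against 11.1, 13.6 and 25.3 in WT, so no change was detectable (-0.35 ± 0.38). Nr1h2, the liver X receptor beta, had 1145, 983 and 1137 in T58A against 1389, 1181 and 1263 in WT (-0.23 ± 0.07, adjusted p = 0.0602), with every T58A library below every WT library. Soat1, which esterifies cholesterol for storage, had 159, 155 and 134 in T58A against 225, 184 and 151 in WT (-0.30 ± 0.13, adjusted p = 0.155) and was lower in T58A in all 3 pairs.

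Macrophages express Abcg1 strongly, so myeloid transcripts are given beside it. The summed level of the 11 myeloid markers in the table was 763, 990 and 497 normalised reads in T58A 1, 2 and 3, against 1201, 811 and 2052 in WT 1, 2 and 3. Of the 9 markers tested 1 fell (Mpeg1) and 0 rose, beside 6.31% and 6.41% of all genes, and none was at 0 in all libraries. Mpeg1 had 1442 to 1870 normalised reads in LPS cultures, where Lyz2 had 7.20 to 24.4. Its fall is therefore not read as a fall of myeloid cells. Lyz2 had 191 to 369 normalised reads in T58A and 170 to 680 in WT, S100a9 27.6 to 172 in T58A and 114 to 500 in WT, and Mpeg1 68.5 to 123 in T58A and 161 to 212 in WT, while Cd14 and Fcgr1 had at most 2.20 in a library. Among the T58A libraries Abcg1 was highest where this sum was lowest (T58A 3), and among the WT libraries it was highest where the sum was highest (WT 3). The part of these cells in the Abcg1 values was not tested.

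Set side by side in IL7 cultures, 5 of the 21 tested synthesis and uptake genes rose (23.8%). Of the 4 export and storage genes 1 rose (25.0%), a like share, against 6.41% of all genes. The median log2 change was 0.16 over synthesis and uptake and -0.27 over export and storage, against -0.01 over all genes tested. The export and storage median lies midway between the storage gene Soat1 and the receptor gene Nr1h2. It is therefore no measure of the exporters, of which Abcg1 rose by 0.49 and Abca1 was close to the floor. By pair the medians were 0.07, 0.06 and 0.35 for synthesis and uptake, and -0.39, -0.03 and -0.16 for export and storage. Synthesis was highest in pair 3, where T58A 3 was the highest of the 6 libraries for 13 of 18 synthesis genes, while WT 1 was the lowest for 8. Higher in all 3 pairs were 11 of the 29 members, against 25.9% of all genes, and lower in all 3 were 4, against 26%. Without pair 3, 1 of 29 members rose (Sqle) and 1 fell (Npc2, -0.42, adjusted p = 0.0398, limma). These shares are like those of all 11657 genes tested then, of which 346 rose and 494 fell. The synthesis and uptake median without pair 3 was 0.04. Without pair 1 the export and storage median was -0.14.

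**Figure D3:**
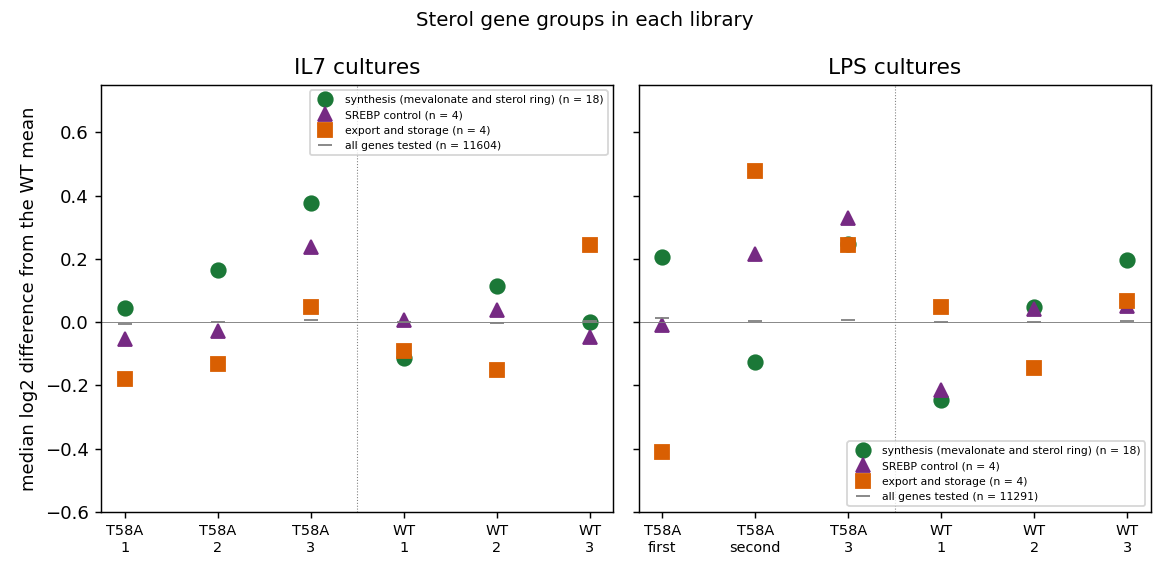
Median log2 difference from the WT mean over the synthesis, SREBP control, and export and storage genes and over all genes tested, in each library of the IL7 cultures (left) and the LPS cultures (right), T58A before WT. In IL7 cultures synthesis is highest in T58A 3, at 0.38, and in LPS cultures the first and the second unnumbered T58A libraries show synthesis and export on opposite sides of 0.

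In LPS cultures 0 of the 29 sterol genes passed the test, against 0 of all 11291 genes (0% higher and 0% lower). No member reached an unadjusted p under 0.05 in limma, where 284 genes did. On the recovered reads edgeR called 0 genes, and DESeq2 called 0 members and 1 gene. The authors' deposited table likewise holds 0 member calls among the 20 members with an adjusted p, against 1.49% of its genes higher and 2.71% lower. No member had its groups apart, against 3.1% of all genes with T58A above WT and 3.3% with T58A below. Standard errors ran from 0.16 to 0.52 on the log2 scale, with a median of 0.21, against a median of 0.11 in IL7 cultures, so small changes were harder to detect. The medians were 0.11 for synthesis and uptake and 0.09 for export and storage, against 0.01 for all genes, and 22 of the 29 members (75.9%) had a positive change, against 52.4% of all genes. With sex as a further term the synthesis and uptake median was -0.02 and that of export and storage 0.03.

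**Figure D4:**
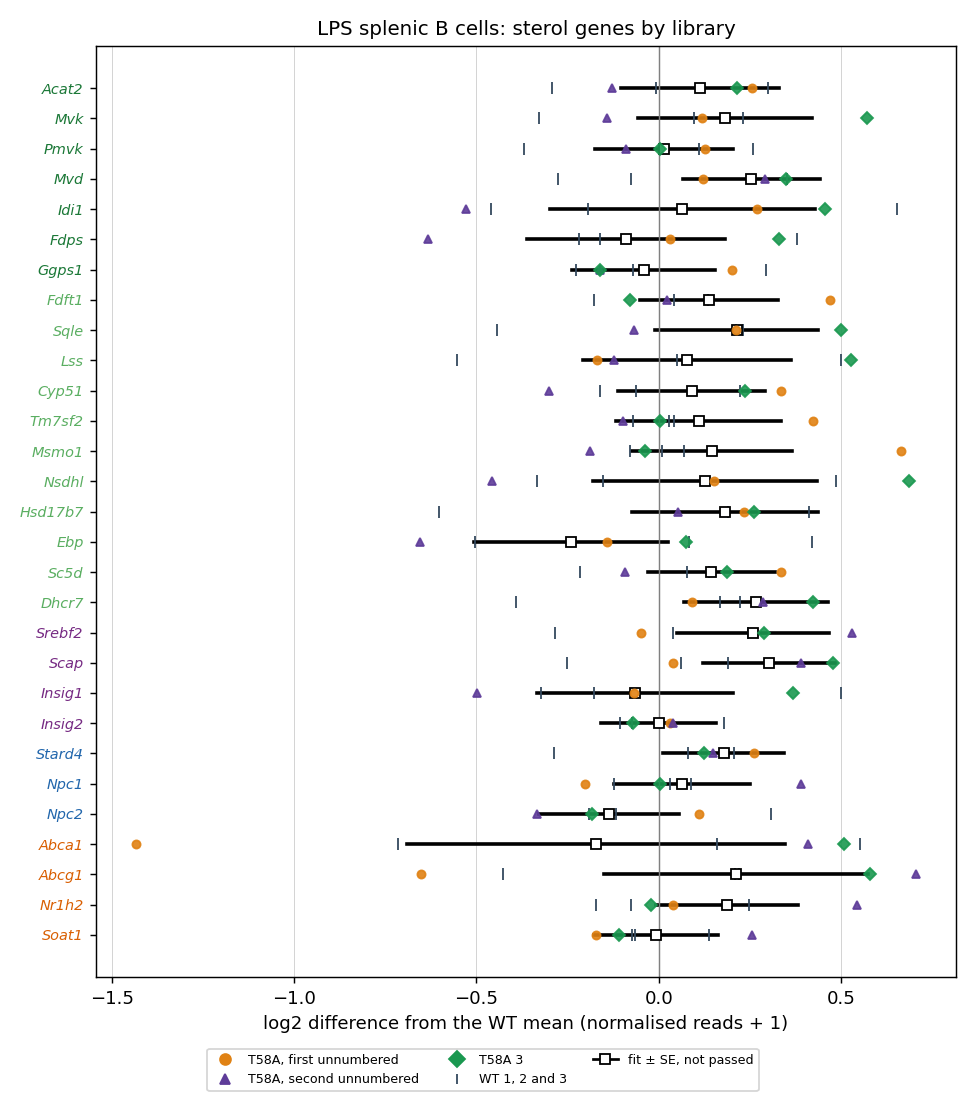
Log2 difference from the WT mean for the 29 tested sterol genes in LPS cultures, in the 3 T58A libraries (coloured points), the 3 WT libraries (ticks) and the limma fit (squares with SE). All squares are open, and for Abca1 and Abcg1 the first unnumbered T58A library lies far left of the other 2.

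The members that rose in IL7 cultures showed wide overlap in LPS cultures. The LPS table heads 2 T58A columns alike, so both lack a number, and they are given in column order as the first and the second unnumbered library, before T58A 3. Sqle had 1088, 897 and 1330 normalised reads in T58A against 691, 1090 and 1103 in WT, a log2 change of 0.21 ± 0.22. Idi1 had 78.0, 44.4 and 89.0 in T58A against 56.3, 46.7 and 102 in WT (0.07 ± 0.36). Both genes were lower in the second unnumbered library than in the other T58A libraries. Lss, the ring-closing enzyme, had 348, 359 and 564 in T58A against 266, 405 and 554 in WT (0.08 ± 0.28). Cyp51 had 2263, 1454 and 2110 in T58A against 1602, 1716 and 2094 in WT (0.09 ± 0.20). The carrier gene Stard4 had 654, 604 and 595 in T58A against 446, 629 and 577 in WT (0.18 ± 0.17), so that WT 1 was the lowest library for Stard4.

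Spread among the T58A libraries was widest in the export genes. Abca1 had 38.4, 141 and 151 normalised reads in T58A against 118, 64.0 and 155 in WT (-0.17 ± 0.52), and Abcg1 had 73.2, 189 and 173 in T58A against 135, 85.6 and 134 in WT (0.21 ± 0.36). The first unnumbered library was the lowest of all 6 for both genes. Relative to the WT mean, the median of the 18 synthesis genes was 0.21, -0.13 and 0.25 in the first, the second and the third T58A library, and that of the export and storage genes was -0.41, 0.48 and 0.24. In WT 1, 2 and 3 these medians were -0.25, 0.05 and 0.20 for synthesis and 0.05, -0.14 and 0.07 for export and storage. The synthesis medians of the T58A libraries lay within or close to the WT range. All 3 export and storage medians, over 4 genes, lay outside it, the first below and the others above. The WT libraries themselves make up the WT mean, which narrows their range, so T58A values outside it are no sign of a change. The summed level of 4 plasmablast markers was 30185, 14358 and 50174 normalised reads in the same T58A libraries, against 76118, 25087 and 75723 in WT 1, 2 and 3, and its part in this spread was not tested. Nr1h2 had 708, 1006 and 679 in T58A against 611, 818 and 654 in WT (0.19 ± 0.19), and Soat1 had 343, 462 and 359 in T58A against 370, 426 and 368 in WT (-0.01 ± 0.17). For both the second unnumbered library was the highest of the 6.

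None of the SREBP control genes passed in LPS cultures, and the groups overlapped in each. Srebf2 had 4080, 6094 and 5156 normalised reads in T58A against 3460, 4996 and 4335 in WT (0.26 ± 0.21), and Scap had 578, 738 and 784 in T58A against 473, 641 and 587 in WT (0.30 ± 0.18). Scap had the smallest p of the members here, an unadjusted 0.127 in limma. Insig1 had 1341, 993 and 1813 in T58A against 1240, 1123 and 1986 in WT, and Insig2 had 301, 303 and 281 against 334, 274 and 280, with log2 changes of -0.07 ± 0.27 and 0.00 ± 0.16. Npc1 had 259, 391 and 299 in T58A against 317, 305 and 274 in WT, and Npc2 had 3550, 2609 and 2898 against 4072, 3034 and 2882 (0.06 ± 0.19 and -0.14 ± 0.19).

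Whether the T58A effect differed between the cultures was tested directly as an interaction over the 12 libraries. Of 12184 genes 0 passed in limma or in edgeR, with 663 genes and 0 members at an unadjusted p under 0.05 in limma. The widest differences among the members, IL7 minus LPS, were 0.60 ± 0.46 for Idi1, 0.51 ± 0.38 for Lss and -0.41 ± 0.24 for Nr1h2 on the log2 scale. The rise of 6 members in IL7 cultures is therefore not shown to be particular to them.

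The level of each gene, as reads scaled to exon length and to the assigned reads of its library (RPKM, computed here), is given as a description, since the tables were normalised separately and tissue, maturity and stimulus differ together. By this measure 11 of the 29 genes with reads were lower in every IL7 library than in every LPS library, beside 20.3% of 12184 genes. Another 2 were higher in every IL7 library, beside 30.4% of these genes, and 16 overlapped. The 2 higher in IL7 cultures were Scap, with 38.4 ± 2.67 in IL7 WT against 11.1 ± 1.94 in LPS WT (SD, n = 3), and Abcg1, with 6.52 ± 2.08 against 2.35 ± 0.52. Abca1 was the other way round, at 0.173 ± 0.078 in IL7 WT against 1.57 ± 0.63 in LPS WT, an IL7 over LPS ratio of 0.110. The exporter pair thus had opposite patterns, Abcg1 being 2.78-fold higher in IL7 WT.

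Among the controllers, Insig1 was at 19.2 ± 1.14 in IL7 WT against 68.2 ± 21.7 in LPS WT, Insig2 at 5.61 ± 0.43 against 12.4 ± 1.12, and Srebf2 at 51.7 ± 5.69 against 86.7 ± 17.7. Scap alone of the 4 ran against that direction. Enzymes lower in every IL7 library were Pmvk, Mvd, Fdft1, Cyp51, Tm7sf2 and Msmo1, the last at 8.80 ± 1.47 in IL7 WT against 28.5 ± 1.96 in LPS WT. Of their exon bases Scap shares 13.2% with 5830462I19Rik, Fdft1 18.3% with Ctsb and Tm7sf2 12.1% with Vps51, so their levels are less certain. Soat1 was at 2.05 ± 0.41 against 5.78 ± 0.63. Idi1, Sqle and Dhcr7 overlapped, with IL7 WT over LPS WT ratios of 0.874, 0.880 and 0.885. Within the pathway, Sqle and Cyp51 had the highest values of the enzymes in IL7 T58A cells, at 32.1 ± 3.18 and 33.6 ± 5.04, values that do not differ beyond their spread. Idi1 and Lss, at 3.81 ± 0.44 and 3.58 ± 0.90, were among the lowest. Exon length here merges all annotated exons, 10787 bases for Lss against 5546 for Sqle, so ranks between genes depend on the annotation.

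**Figure D5:**
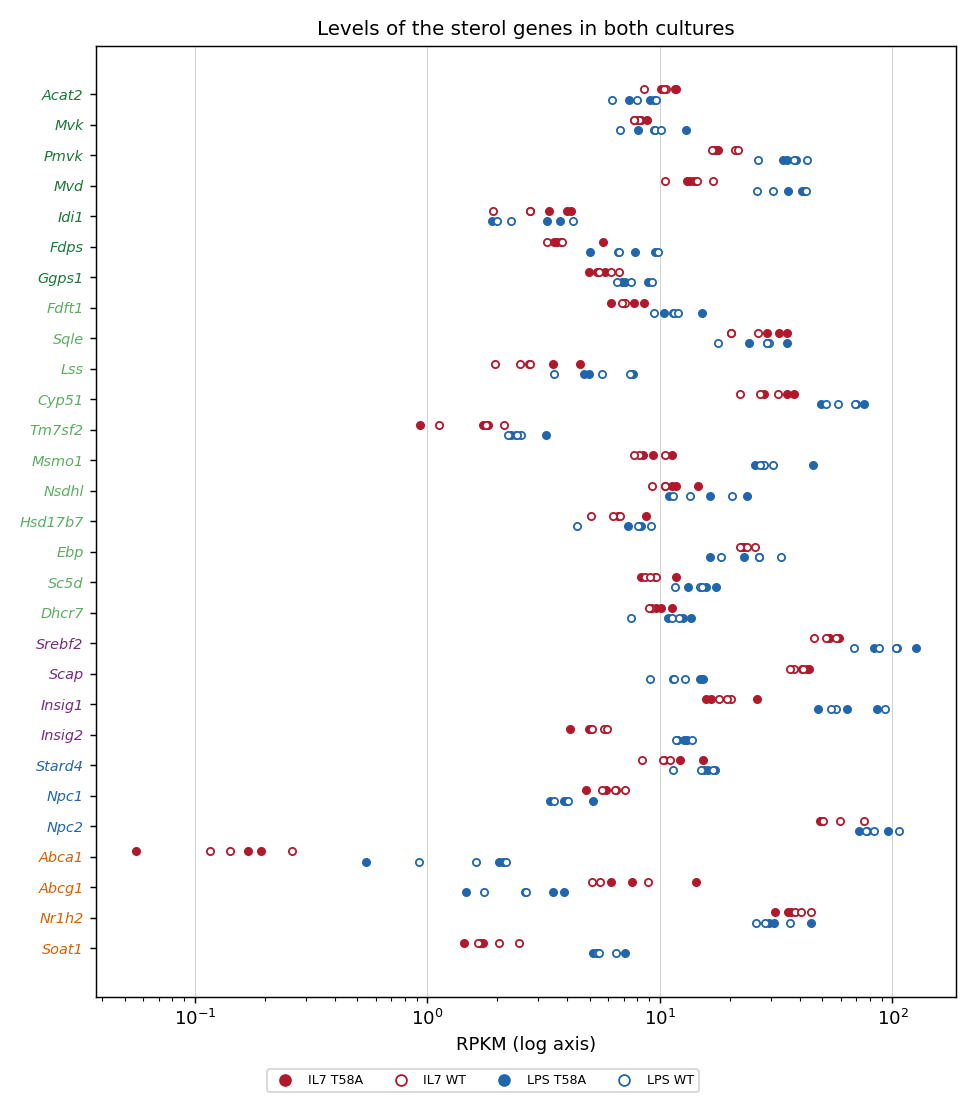
Level of the 29 tested sterol genes per length and depth (log axis) in each library, filled for T58A and open for WT, IL7 above LPS within each gene. Scap and Abcg1 lie to the right in IL7 cultures, and Abca1, Insig1 and Msmo1 lie to the right in LPS cultures.

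A further 44 sterol and isoprenoid genes outside the 30 were read from the same fits. In IL7 cultures 38 were tested, 5 rose (13.2%, against 6.41% of all genes) and 1 fell (2.63%, against 6.31%), with a median of 0.11, and in LPS cultures 40 were tested and 0 passed. Scarb1, the receptor that takes cholesteryl ester from high-density lipoprotein, rose by 0.39 ± 0.07 (adjusted p = 0.0119, limma), and Tmem97, a SREBP target that binds NPC1, rose by 0.45 ± 0.10 (0.0243). Gramd1a, a carrier of cholesterol to the endoplasmic reticulum, fell by 0.26 ± 0.07 (0.0494). The 11 genes that use isoprenoids for prenylation, ubiquinone or dolichol all had positive changes in IL7 cultures, as had 49.0% of all genes, with a median of 0.13, and 0 passed. In LPS cultures 5 of the 11 were positive.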

How the data were processed

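RNA of 12 libraries was analysed. Per the submitters' processing notes, bcl2fastq 1.8.4, TopHat2 2.1.0 with mm10, HTSeq 0.6.1 and DESeq2 were used, and per the labels' protocols the TruSeq RNA v2 kit made the libraries. The authors deposited for each culture a signal per gene and library (normalised reads), together with their own log2 fold change and p-value. Every signal was a whole read count over 1 size factor within a tolerance of 0.001 (100% of values), so the reads were recovered. The strand setting of the counting is not given in the sources used here.

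Genes were filtered with filterByExpr of edgeR 4.0.16. Genotype was tested with limma 3.58.1 (limma-trend, R 4.3.3) on log2 of the normalised reads plus 1, a scale that understates changes of low genes, with Benjamini-Hochberg adjusted p under 0.05 over all genes tested. The IL7 fit has the pair as a block, because the titles number pairs and same-numbered libraries deviated together. Their correlations were 0.41, 0.15 and 0.40, against -0.36 to -0.05 for different numbers. Deviations were taken from the mean of each genotype, so positive values for the same number pull the others below 0. The range for different numbers is thus no independent contrast. The block was chosen knowing that the limma fit without it calls 0 genes. Of the LPS columns 2 carry no usable pair number, so that fit has no block. The interaction was fitted over all 12 libraries on the recovered reads as log2 CPM (TMM scaling), with the IL7 pairs as a block.

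The 30 genes, the lists and the tests were chosen with earlier results of these data known. By the rule for named genes, all 30 were named, those past a test and those of control, uptake, export and storage were given library by library, and further sterol genes were named where they passed. A few genes covered by it are not reported here. Locations come from GENCODE M21 (GRCm38), and promoters from RefSeq. Alternatives were other pseudocounts, scalings, filters, tools (DESeq2 1.42.0), blocks, sex as a term and leaving out libraries. The tests were tested on simulated data. Figures were drawn with matplotlib in Python.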

Additional observations from a re-analysis of the deposited data

How the results depend on the processing

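With the replicate block in IL7 cultures limma called 6 members higher, and with no replicate block 0. Without a replicate the number higher was 1 to 5 and the number lower 0 to 1. The lowest and the single lower call both came from leaving out replicate 3. Of all genes, these fits called 344 to 675 higher and 431 to 721 lower, against 744 and 732 in the main fit. With sex as a further term 1 member (Sqle) was called and the synthesis and uptake median was 0.35, the same as in pair 3, the single same-sex pair. DESeq2 and edgeR without the block were both added after the data had been seen. DESeq2 called 1 member, beside 166 genes higher and 144 lower, and edgeR 0 members and 0 genes. The cause was not tested, beyond the pair or sex term itself. With the block edgeR called 6 members higher, beside 670 genes, and DESeq2 4, beside 510 genes. Other pseudocounts, TMM and filters gave 6 each, beside 683 to 781 genes. Sqle kept its call in 12 of 14 alternatives, Lss, Cyp51 and Abcg1 in 9, Stard4 in 8 and Idi1 in 6, and no called gene changed sign. In LPS cultures 0 members were called under any alternative run, the replicate block in both possible pairings of the unnumbered columns included. In 1 pairing 3 of 29 members had an unadjusted p under 0.05 in limma, beside 1889 of all 11291 genes. In the other 0 members had, beside 317 genes. The pairing with the 3 follows the column order, not a label. Its libraries' deviations correlated at 0.34, 0.66 and 0.54, a hint from the data and not from the design. In this pairing Srebf2, Scap, Dhcr7 and Nr1h2 were higher in T58A in each pair, and Ebp was lower in each. The share of all genes with such a pattern was not counted, so no rise is read from these genes. Leaving out 1 LPS library moved the median of synthesis and uptake between 0.02 and 0.24 and that of export and storage between -0.09 and 0.36, and 21 members changed sign in some alternative. Abca1 in IL7 cultures, at 5.38 to 25.3 normalised reads, was the member nearest the limit of a count of 0.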
